A study of Rattus norvegicus with 39 samples.

Results

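The mitosis genes described here are a set of 43 genes whose products enter or carry out cell division, taken by symbol from the annotation of the Affymetrix Rat 230 2.0 array, with synonyms allowed. Of these, 38 had at least 1 probe set that carried a single gene symbol, among 14217 genes measured. Ndc80, Kif4a and Tpx2 matched no probe set in the annotation, and Ckap2 and Anln matched only probe sets that also carried a second symbol, so these 5 were left out. The genes were chosen by their function in mitosis, with earlier results of these data known.

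Livers of 39 rats aged 5 to 6 weeks were sampled at the left lateral lobe 48 h after treatment, with 1 array per rat. Each of 6 compounds was given to 5 rats. ANIT (alpha-naphthylisothiocyanate, a bile duct and liver toxicant) was given at 125 mg/kg in corn oil by mouth, DMN (dimethylnitrosamine, which liver enzymes turn into an agent that methylates DNA) at 15 mg/kg in water by mouth, and NMF (N-methylformamide, a solvent toxic to the liver) at 1000 mg/kg in saline by intraperitoneal injection. Caerulein (a peptide that stimulates the exocrine pancreas) was given at 50 µg/kg in saline by intraperitoneal injection, DNP (dinitrophenol, an uncoupler of oxidative phosphorylation) at 15 mg/kg in water by mouth, and Roziglitazone, as the labels spell the insulin sensitizer rosiglitazone, at 1000 mg/kg in methylcellulose by mouth. The 9 control rats were untreated and were given no vehicle, so compound, vehicle and route cannot be told apart against them, and all 6 comparisons share these 9 control arrays. Values are log2 probe set intensities, with a precision limited by the number of arrays.

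In mitosis the duplicated chromosomes condense, attach through their kinetochores to the spindle and are pulled apart once the anaphase-promoting complex, a ubiquitin ligase, has been released from the spindle checkpoint. Many of the genes involved are transcribed mainly from late S phase to mitosis, through a promoter element called the cell cycle genes homology region (CHR), often with CCAAT boxes bound by NF-Y upstream of it. The normal adult liver holds few dividing cells, and after loss of tissue its hepatocytes and other resident cells return to the cell cycle.

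The promoter letters are shown first because they are a feature of these genes that the choice of members did not use. RefSeq promoters of build GRCr8, each from 250 bases before to 50 bases after an annotated start, were searched on both strands for the CHR hexamer (TTTGAA or TTCGAA) and for CCAAT. Promoters were found by symbol for 33 of the 38 genes, with 2 records each for Kif2c and Cdkn3, and none for Ube2c, Aurkb, Pbk, Racgap1 and Mybl1. The hexamer stood in 25 of the 33 (75.8%), against 15.0% of the 11733 measured genes with a promoter in the table and 19.7% of all 33469 promoters. CCAAT stood in 26 of the 33 (78.8%), against 38.6% of measured genes and 37.5% of all promoters. Both stood together in 22 of the 33 (66.7%), against 6.15% of measured genes, and 2 or more CCAAT letters stood in 18 (54.5%), against 13.0%. The last 120 bases before the start are shown for 6 genes with the hexamer and for Aurka, which had neither motif in its window, with the hexamer and CCAAT in capitals as read on either strand (TTCAAA is TTTGAA and ATTGG is CCAAT on the opposite strand). They lie at chr10:84473094-84473213 on the minus strand for Top2a, chr5:137255800-137255919 on the minus strand for Cdc20, chr17:13727520-13727639 on the minus strand for Cks2, chr10:25665216-25665335 on the minus strand for Hmmr, chr10:103572026-103572145 on the plus strand for Birc5, chr5:71602285-71602404 on the plus strand for Smc2 and chr3:181560770-181560889 on the minus strand for Aurka.
Top2a: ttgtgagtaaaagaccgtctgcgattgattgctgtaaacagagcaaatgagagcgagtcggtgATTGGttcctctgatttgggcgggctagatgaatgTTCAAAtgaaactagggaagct
Cdc20: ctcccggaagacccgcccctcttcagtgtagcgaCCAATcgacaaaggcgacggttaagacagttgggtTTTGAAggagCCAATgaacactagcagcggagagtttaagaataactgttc
Cks2: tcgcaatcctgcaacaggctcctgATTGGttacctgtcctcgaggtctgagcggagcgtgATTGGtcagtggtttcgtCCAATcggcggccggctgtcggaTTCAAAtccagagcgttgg
Hmmr: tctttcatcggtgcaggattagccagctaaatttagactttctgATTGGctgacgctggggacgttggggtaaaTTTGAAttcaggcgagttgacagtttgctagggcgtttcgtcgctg
Birc5: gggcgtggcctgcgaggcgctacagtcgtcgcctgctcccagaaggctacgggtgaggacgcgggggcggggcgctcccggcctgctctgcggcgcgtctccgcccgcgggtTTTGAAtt
Smc2: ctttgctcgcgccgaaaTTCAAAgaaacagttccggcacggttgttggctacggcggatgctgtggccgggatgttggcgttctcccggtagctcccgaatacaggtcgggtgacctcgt
Aurka: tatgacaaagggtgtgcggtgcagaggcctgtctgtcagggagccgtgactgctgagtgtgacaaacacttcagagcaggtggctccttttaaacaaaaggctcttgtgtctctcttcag

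**Figure D1:**
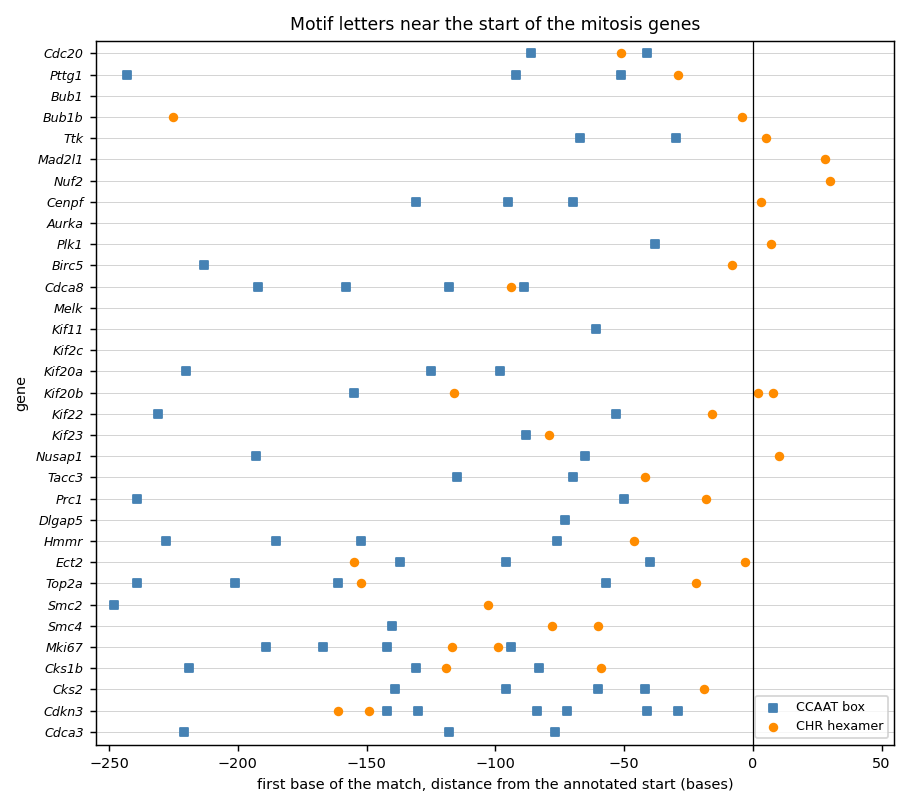
Positions of the CHR hexamer (circles) and of CCAAT (squares) in the promoters of the 33 mitosis genes found in the RefSeq table, as the distance of the first base of the match from the annotated start in bases, with 1 gene a row and both records of Kif2c and Cdkn3 in their rows. Of the 34 hexamer matches, with Cdkn3 counted once in each of its 2 records, 21 lie within 60 bases of the start. Bub1, Aurka, Melk and Kif2c have no match of either kind.

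The hexamer began 22 bases before the start in Top2a, 51 in Cdc20, 19 in Cks2, 46 in Hmmr, 8 in Birc5 and 103 in Smc2. Within 60 bases of the start on either side it was found in 20 genes. No hexamer stood in the windows of Bub1, Aurka, Melk, Kif11, Kif2c, Kif20a, Dlgap5 and Cdca3. Among other lists, the hexamer stood in 33 of 51 further mitosis genes with a promoter (64.7%) and in 4 of 27 DNA replication genes (14.8%), while CCAAT stood in 52.9% and 63.0% of them. These are letter matches and not measured binding.

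Before the results, 3 arrays need naming because their profiles over genes outside the lists used here did not follow their labels. The array labelled ANIT 3 correlated across genes at 0.308 with the other ANIT arrays and at 0.681 with DMN, in deviations from the mean of the other arrays. The array labelled Roziglitazone 2 correlated at -0.309 with its own group and at 0.806 with ANIT. DMN 2 correlated at -0.013 with its own group and at most at 0.129 with any group. Only 15 of the 39 arrays correlated best with their own group, and the other arrays that did not were mostly controls and arrays of Caerulein, DNP and Roziglitazone. The counts of mitosis genes called for ANIT and DMN are therefore given with all arrays and without ANIT 3, Roziglitazone 2 and DMN 2. Roziglitazone 1, control 5 and DNP 1 were kept, although they correlated with their own groups at -0.224, -0.087 and -0.061, lower than DMN 2. Each correlated better with another group, at 0.355, 0.383 and 0.342. No threshold on the correlation with the own group thus separates the 3 arrays in doubt from those kept. Leaving out DMN 2 alone raised the count for DMN against controls from 26 to 29. The share of all genes called rose with it, from 10.4% to 12.8%. Counts for the other gene lists and the cell markers below are given with all arrays only, so those for ANIT include ANIT 3. The difference between the 5′ and 3′ probe sets of Gapdh, a sign of RNA integrity, was lowest at -6.07 in DMN 3, -5.70 in NMF 3, -5.64 in control 4 and -4.42 in Roziglitazone 1.

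Most of the mitosis genes were higher with DMN. With DMN 26 of the 38 were higher than in controls and none lower, at an adjusted p under 0.05 from limma (Benjamini-Hochberg over all genes), where 5.87% of all genes were called higher and 4.53% lower. The median log2 fold change of the 38 was 0.97, against -0.06 over all genes, and 19 genes were at 1 or more. Log2 fold changes above 2 were measured in Ube2c (3.01), Bub1 (2.33), Kif20a (2.19) and Cdkn3 (2.04), and in Mybl1 (at least 3.32), Kif20b (at least 3.21), Smc2 (at least 2.44) and Smc4 (at least 2.36). The control means of the last 4 lay at background (the level of bacterial spike probe sets), so their differences are lower bounds and the 8 genes have no order. Without the 3 arrays in doubt 31 were called higher, where 7.56% of all genes were, the same 26 with Nuf2, Cenpf, Kif11, Kif2c and Pttg1. In bulk tissue, more cells that express a gene and more RNA per cell cannot be told apart. In 7 genes all 5 DMN arrays lay above all 9 controls (Ube2c, Birc5, Kif20b, Top2a, Cks1b, Cdkn3 and Mybl1), a pattern seen in that direction in 1.34% of all genes. Of the 26 calls, 19 held in each alternative in which they were checked, and those of Cdca3, Cdca8, Cks1b, Ect2, Kif22, Plk1 and Prc1 did not. Genes removed as dim could not be checked in the fit without dim genes. The fit of every probe set was not part of this check.

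**Figure D2:**
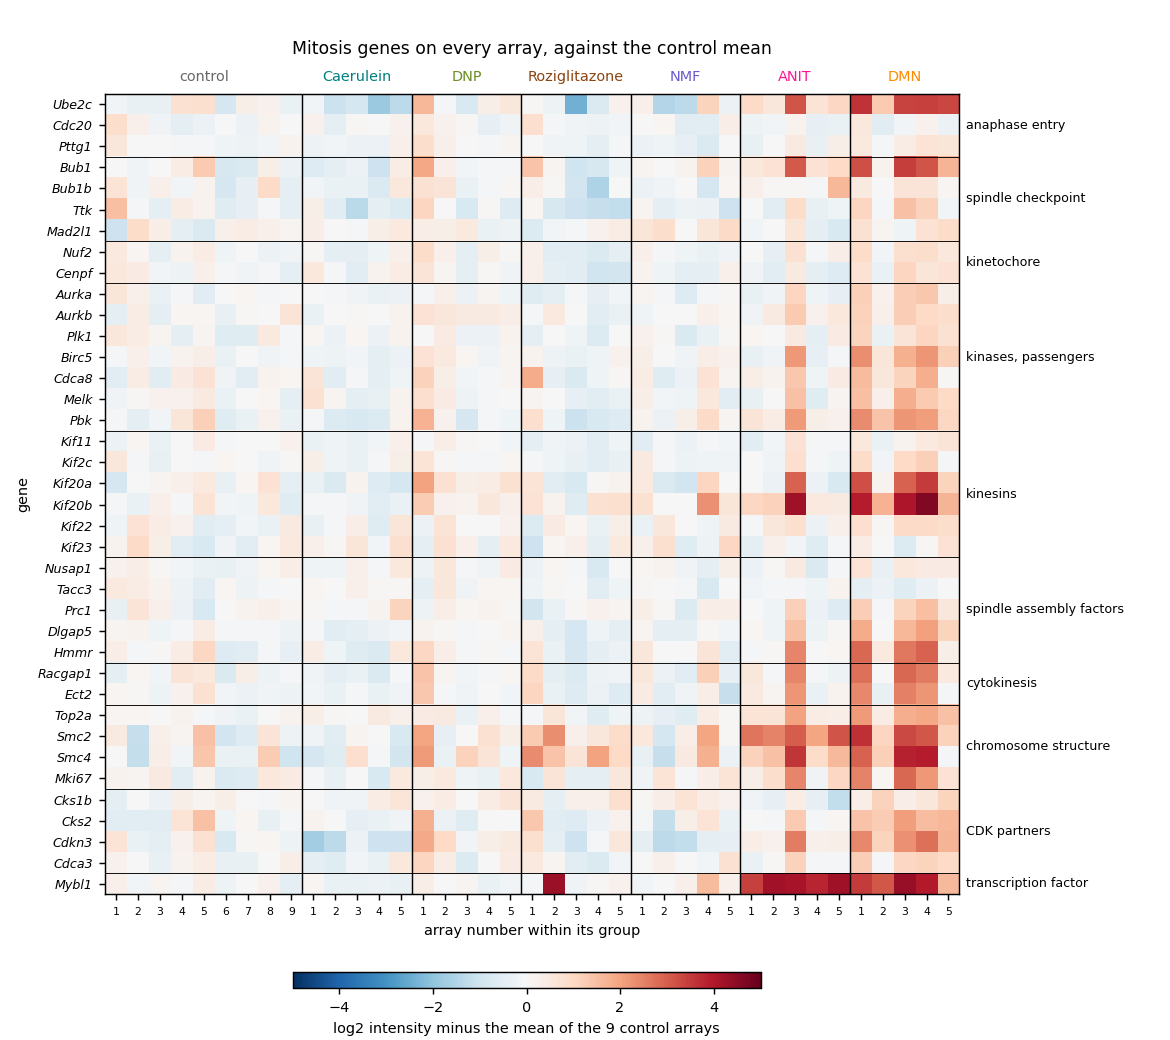
Each of the 38 measured mitosis genes (rows, grouped by role) on each of the 39 arrays (columns, grouped by treatment), as log2 intensity minus the mean of the 9 controls, on a colour scale reaching 5 on either side of 0. DMN 1, 3 and 4 and the array labelled ANIT 3 are the most strongly raised columns, DMN 5 is raised in part of the rows, and Mybl1 and Smc2 are raised in every ANIT array.

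Of the 3 genes of anaphase entry, Ube2c rose with DMN. Ube2c, the ubiquitin-conjugating enzyme of the anaphase-promoting complex, read 10.57, 8.25, 10.35, 10.38 and 10.28 in DMN 1 to 5, while the controls had a lowest value of 6.13, a median of 6.81 and a highest of 7.77. All DMN arrays lay above the controls, DMN 2 least. The log2 fold change was 3.01 (SE 0.46, limma adjusted p = 3.82e-05), or 8.06-fold. Pttg1, the securin that holds separase in check until anaphase, read 9.29, 8.73, 9.21, 9.49 and 9.44 with DMN, against 8.56 to 9.38 in controls with a median of 8.77. Its arrays overlapped the controls and the difference of 0.41 did not pass (adjusted p = 0.107). Cdc20, the activator of the complex, differed by -0.05 on the probe set that stood for it (adjusted p = 0.917). Dimmer probe sets of Cdc20 were called higher, at up to 0.92.

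Of the 4 spindle checkpoint genes, Bub1 rose. Bub1, a checkpoint kinase at the kinetochore, read 7.99, 4.94, 8.21, 7.90 and 6.46 with DMN, against 3.95 to 6.08 in controls with a median of 4.77. DMN 2 lay inside the control range and the other DMN arrays above it. The log2 fold change was 2.33 (SE 0.45, adjusted p = 0.000662). Bub1b, its partner in the checkpoint complex, read 6.47, 6.02, 6.66, 6.67 and 6.12, all inside the control range of 5.17 to 6.96, and differed by 0.37 (adjusted p = 0.496). Ttk, the kinase at the top of the checkpoint, differed by 0.69 (adjusted p = 0.200), and Mad2l1, which binds Cdc20, by 0.45 (adjusted p = 0.285). Dimmer probe sets of Mad2l1 were called higher, at up to 1.72.

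Neither of the 2 kinetochore genes passed. Nuf2, a subunit of the microtubule-binding Ndc80 complex, read 8.49, 7.41, 8.37, 8.42 and 8.07 with DMN, against 7.10 to 8.05 in controls with a median of 7.58. DMN 2 alone lay inside the control range, and the difference of 0.60 had an adjusted p of 0.0586. Cenpf, a large protein of the outer kinetochore, differed by 0.57 (adjusted p = 0.107).

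Among mitotic kinases and chromosomal passengers 7 of 7 rose, with a median log2 fold change of 1.02. Birc5 (survivin), a subunit of the chromosomal passenger complex, read 9.21, 7.49, 8.66, 9.11 and 8.10 with DMN, against 6.57 to 7.19 in controls with a median of 6.85. All DMN arrays lay above all controls, and the log2 fold change was 1.62 (SE 0.27, adjusted p = 0.000125). Plk1, the kinase that drives centrosome maturation and mitotic entry, read 9.02, 7.55, 8.56, 8.98 and 8.68, against 7.31 to 8.47 in controls with a median of 8.05. DMN 2 lay below the control median and the other 4 above the highest control, and the difference of 0.66 passed narrowly (SE 0.22, adjusted p = 0.0481). The other members were Pbk, a mitotic protein kinase, at 1.82, Melk, another kinase of dividing cells, at 1.17, Cdca8 (borealin), a passenger subunit, at 1.02, Aurkb, the kinase of the passenger complex, at 0.91, and Aurka, the kinase of the spindle poles, at 0.86.

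Of the 6 kinesins measured, 3 rose. Kif20b, a kinesin of the midzone and late cytokinesis, read 7.79, 5.61, 7.92, 8.48 and 5.58 with DMN, against 3.25 to 4.56 in controls with a median of 3.80. All DMN arrays lay above all controls, with DMN 2 and DMN 5 nearest to them. The control mean of 3.87 lay within the means of 26 of the 27 bacterial poly-A spike probe sets, 3.49 to 4.70, taken here as background, so the fold of at least 9.24 is a lower bound (log2 3.21, SE 0.46, adjusted p = 1.45e-05). Kif20a, which carries the passenger complex to the midzone, differed by 2.19 (adjusted p = 0.00196) and Kif22, a chromosome-arm kinesin, by 0.74 (adjusted p = 0.0375). Kif23, the motor of the centralspindlin complex, read 7.87, 7.52, 6.82, 7.59 and 8.22, within the control range of 6.76 to 8.48, and differed by 0.09 (adjusted p = 0.890). Kif2c, a microtubule depolymerase, differed by 0.57 (adjusted p = 0.0555) and Kif11, which separates the spindle poles, by 0.30 (adjusted p = 0.269). A dimmer probe set was called higher for Kif23 (1.94) and for Kif11 (1.14).

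Of the 5 spindle assembly factors measured, 3 rose. Dlgap5, a microtubule-binding protein of the spindle, read 8.21, 6.38, 8.01, 8.42 and 7.48 with DMN, against 6.12 to 6.75 in controls with a median of 6.32. DMN 2 lay inside the control range and the other 4 above it, with a log2 fold change of 1.33 (SE 0.24, adjusted p = 0.000247). Hmmr, a spindle and hyaluronan-binding protein, differed by 1.84 (adjusted p = 0.00207) and Prc1, which bundles midzone microtubules, by 0.85 (adjusted p = 0.0330). Nusap1, a microtubule bundler, read 8.59, 7.53, 8.41, 8.31 and 8.29, against 7.52 to 8.24 in controls, and its difference of 0.33 did not pass (adjusted p = 0.311). Tacc3, which stabilizes kinetochore fibres, differed by -0.34, with all 5 DMN arrays below the control mean, and did not pass (adjusted p = 0.188). A dimmer probe set was called higher for Nusap1 (0.84) and for Tacc3 (1.61).

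Both cytokinesis genes measured rose. Racgap1, the other subunit of centralspindlin, read 8.07, 5.30, 8.17, 7.92 and 5.80 with DMN, against 4.60 to 5.97 in controls with a median of 5.23. Ect2, the exchange factor that Racgap1 recruits to activate RhoA at the cleavage furrow, read 8.54, 5.76, 8.64, 8.33 and 6.09, against 5.84 to 6.92 with a median of 5.99. In both, DMN 1, 3 and 4 lay far above the controls while DMN 2 and DMN 5 lay inside or below the control range. The log2 fold changes were 1.74 (SE 0.42, adjusted p = 0.00483) and 1.33 (SE 0.40, adjusted p = 0.0249).

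All 4 genes of chromosome structure rose, with a median of 2.02. Top2a, the topoisomerase that untangles sister chromatids, read 9.97, 8.22, 9.66, 9.79 and 9.32 with DMN, against 7.53 to 8.04 in controls with a median of 7.88. All DMN arrays lay above all controls, with a log2 fold change of 1.53 (SE 0.24, adjusted p = 3.88e-05). Smc2, a core subunit of condensin, was singled out after its values were seen. It read 8.26, 5.68, 7.90, 7.71 and 5.76, against 3.46 to 6.07 in controls with a median of 4.77. DMN 2 and DMN 5 lay inside the control range, and the fold was at least 5.44 (log2 2.44, SE 0.45, limma adjusted p = 0.000344). The control mean of 4.62 lay at background, while the control median of 4.77 lay above the background range of 3.49 to 4.70. Smc4, its condensin partner, differed by 2.36 (adjusted p = 0.00425), also over a control mean at background (4.48), and Mki67, the proliferation marker that coats mitotic chromosomes, by 1.67 (adjusted p = 0.00229).

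All 4 CDK partners and regulators rose. Cdkn3, a phosphatase that acts on cyclin-dependent kinases, read 9.61, 8.32, 9.51, 9.98 and 8.91 with DMN, against 6.46 to 7.99 in controls with a median of 7.27, with no overlap and a log2 fold change of 2.04 (SE 0.36, adjusted p = 0.000195). Cks1b, a small subunit bound to CDKs, read 9.81, 10.59, 9.79, 10.04 and 10.55, against 8.97 to 9.76 in controls with a median of 9.49. Here DMN 2 and DMN 5 were the highest of the 5 arrays, unlike the genes above, and the difference was 0.70 (SE 0.20, adjusted p = 0.0194). Cks2, its paralog, differed by 1.60 (adjusted p = 0.00207) and Cdca3, a trigger of entry into mitosis, by 0.86 (adjusted p = 0.0237).

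Mybl1 (A-Myb), a transcription factor related to the B-Myb that works with the CHR-binding complex, was the member with the lowest adjusted p with DMN. It read 7.57, 7.16, 8.41, 8.04 and 5.69, against 3.56 to 4.42 in controls with a median of 4.04. All DMN arrays lay above all controls, and the fold was at least 9.97 (log2 3.32, SE 0.44, adjusted p = 5.76e-06) over a control mean of 4.06 at background.

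**Figure D3:**
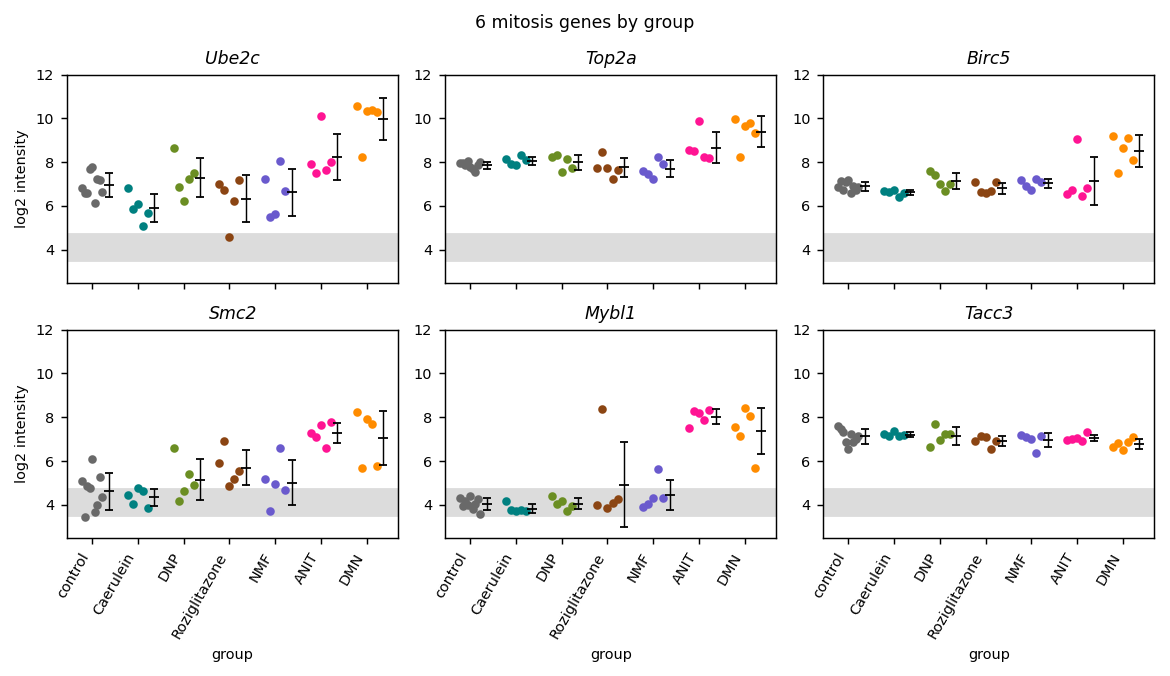
Log2 intensity of Ube2c, Top2a, Birc5, Smc2, Mybl1 and Tacc3 on each array (points), by group, with the group mean and SD beside the points (n = 9 controls, 5 per compound); the grey band from 3.49 to 4.70 holds the means of 26 of the 27 spike probe sets. Mybl1 lies between 7.49 and 8.31 in the ANIT arrays and reaches 8.37 in the array labelled Roziglitazone 2, while Ube2c is above 10 in ANIT 3 alone among the ANIT arrays.

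The 5 DMN livers were not alike. The mean of the 38 genes, less its mean in the controls, was 1.69, 0.35, 1.63, 1.73 and 0.81 in DMN 1 to 5, while the controls lay between -0.32 and 0.31. DMN 1, 3 and 4 had 30, 30 and 32 of the 38 genes above the highest control, DMN 5 had 22 and DMN 2 had 8. DMN 5 lay within 0.5 of the DMN median in 17 genes, among them Ube2c at -0.07 from it, Cdca3 at -0.07, Plk1 at the median and Cks2 at 0.12. In the same array 5 genes were more than 2 below the DMN median, namely Smc4 (-2.99), Hmmr (-2.35), Ect2 (-2.24), Kif20b (-2.21) and Racgap1 (-2.12). DMN 2 was more than 1 below the DMN median in 21 genes. DMN 3, the array with the lowest Gapdh difference, was raised as far as DMN 1 and DMN 4. With that difference as a covariate 27 of the 38 were called higher, where 6.49% of all genes were. The part of RNA integrity in these values was not tested.

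**Figure D4:**
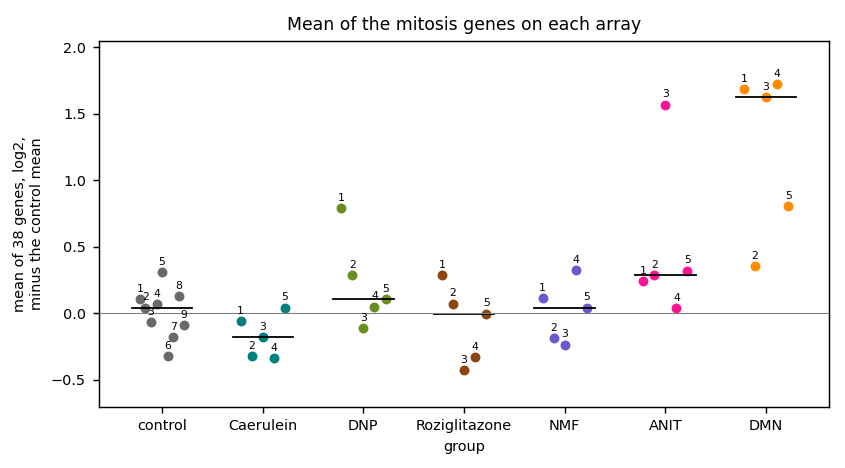
Mean of the 38 mitosis genes on each array in log2 units, less the mean of the controls (points labelled with the array number), with the median of each group as a bar. DMN 1, 3 and 4 and ANIT 3 lie between 1.57 and 1.73, DMN 5 at 0.81 and DNP 1 at 0.79, and the controls between -0.32 and 0.31.

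Few of the mitosis genes were higher with ANIT, among them Mybl1 and Smc2 in every ANIT array. With ANIT 5 of the 38 were higher than in controls and none lower, where 8.19% of all genes were called higher and 8.29% lower; the median of the 38 was 0.24, against -0.09 over all genes. Without ANIT 3 the median of the 38 was -0.03, against -0.06 over all genes. Mybl1 read 7.49, 8.27, 8.19, 7.86 and 8.31 in ANIT 1 to 5, with all arrays above all controls and the fold at least 15.6 (log2 3.97, SE 0.44, adjusted p = 3.77e-07). Smc2 read 7.29, 7.11, 7.65, 6.60 and 7.77, again above all controls, at a fold of at least 6.32 (log2 2.66, SE 0.45, adjusted p = 7.43e-05). In these 2 genes the array labelled ANIT 3 did not stand out, at 0.00 from the ANIT median for Mybl1 and 0.36 above it for Smc2. Top2a read 8.56, 8.51, 9.86, 8.22 and 8.17, above all controls, with a difference of 0.81 (SE 0.24, adjusted p = 0.0160). These 3 were the genes without overlap, a pattern seen in that direction in 2.73% of all genes.

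The calls of Kif20b (at least 1.47, adjusted p = 0.0244) and Smc4 (at least 1.74, adjusted p = 0.0265) rested on ANIT 3, as did that of Top2a when ANIT 3 alone was left out. Without it their adjusted p values were 0.193, 0.128 and 0.119, and 2 genes remained called, Mybl1 and Smc2, where 8.34% of all genes were called higher and 6.46% lower. Kif20b read 8.09 in ANIT 3 and between 4.33 and 5.00 in the other ANIT arrays. ANIT 3 was more than 1 above the ANIT median in 21 of the 38 genes and within 0.5 of the DMN median in 36. Without all 3 arrays in doubt Mybl1 (at least 3.93), Smc2 (at least 2.57) and Top2a (0.51) were called higher with ANIT. Cks1b was called lower (-0.55, limma adjusted p = 0.0352), where 8.9% of all genes were called higher and 7.06% lower.

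DMN and ANIT, both given by mouth at different doses and in different vehicles, were also compared with each other. The difference itself does not use the controls they share, but the spread behind its p values was estimated over all groups, controls included. Fitting the 2 groups alone called 0 of the 38 genes and 0% of all genes. With all arrays 5 of the 38 genes were higher with DMN than with ANIT and none lower, where 1.07% of all genes were called higher and 1.46% lower. They were Cks1b (1.07, adjusted p = 0.00839), Birc5 (1.39, adjusted p = 0.0116), Dlgap5 (1.10, adjusted p = 0.0223), Aurka (0.87, adjusted p = 0.0327) and Melk (1.04, adjusted p = 0.0444). None of the 38 had all DMN arrays above all ANIT arrays, against 1.01% of all genes. This count depended on single arrays. It was 18 without ANIT 3, where 3.24% of all genes were called higher, and 27 without the 3 arrays in doubt, where 3.77% were, led by adjusted p by Birc5 (2.13, adjusted p = 5.33e-09), Dlgap5 (1.73) and Kif20a (3.03). It was 14 without DMN 2 (1.54% of all genes called higher), 3 without DMN 3 (0.647%) and 2 without DMN 1 (0.872%) or DMN 4 (0.612%). It was 1 without ANIT 1 (0.338%), ANIT 2 (0.246%) or ANIT 4 (0.204%), and 0 without ANIT 5 (0.155%). The share over all genes thus moved with the array left out too. Mybl1 and Smc2 were not called between DMN and ANIT with all arrays, without ANIT 3 or without the 3 arrays in doubt. Mybl1 differed by -0.65 between DMN and ANIT with all arrays.

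NMF, the third compound toxic to the liver, left the mitosis genes without a call in either direction, where 7.48% of all genes were called. At an unadjusted p under 0.05 in limma there were 3, Mad2l1 (0.60), Cdkn3 (-0.77) and Pttg1 (-0.34), or 3 of 38 where 19.6% of all genes reached it. The median of the 38 was -0.02. Top2a read 7.60, 7.46, 7.25, 8.24 and 7.92 with NMF and Ube2c 7.21, 5.49, 5.65, 8.07 and 6.68, so that only NMF 4 lay above the highest control in both. NMF 4 had 11 of the 38 genes above the highest control and the other NMF arrays between 1 and 4. Mybl1 stood at 5.66 in NMF 4 and between 3.92 and 4.31 in the others.

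The direct comparison of DMN with NMF called 21 of the 38 genes higher with DMN and none lower, where 3.0% of all genes were called higher and 1.66% lower. Among them were Ube2c (3.35, adjusted p = 5.61e-05), Cdkn3 (2.82, adjusted p = 1.98e-05) and Mybl1 (at least 2.93, adjusted p = 0.000204). The NMF means of Mybl1, Kif20b and Smc4 lay at background, so their differences are lower bounds. In 7 genes all DMN arrays lay above all NMF arrays (Cdkn3, Ube2c, Mybl1, Birc5, Cks2, Aurka and Pbk), against 1.77% of all genes. The count was 29 without the arrays in doubt, where 4.56% of all genes were called higher, and 13 without DMN 3, where 1.86% were. ANIT against NMF called 4 of the 38 higher and none lower, where 3.76% of all genes were called higher and 2.86% lower. These were Mybl1 (at least 3.58, adjusted p = 1.75e-05), Smc2 (2.26, adjusted p = 0.00463), Cdkn3 (1.51, adjusted p = 0.0183) and Top2a (0.97, adjusted p = 0.0215). Without NMF 2 that count was 2, where 2.33% of all genes were called higher. Without ANIT 3 there were 2 higher and 2 lower, at a median of 0.08 in place of 0.34, where 4.77% of all genes were called higher and 3.23% lower. Without the 3 arrays in doubt 3 were higher, Mybl1 (at least 3.54), Smc2 (2.17) and Top2a (0.67), and 2 lower, Cks1b (-0.88, adjusted p = 0.0042) and Mad2l1 (-0.93, adjusted p = 0.044). Cdkn3 was not called without them, and 5.61% of all genes were called higher and 3.75% lower.

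Caerulein, DNP and Roziglitazone each left the 38 genes without a call by limma, and 0.0% of all genes were called in each. At an unadjusted p under 0.05 there were 2 with Caerulein, Cdkn3 (-1.09) and Ube2c (-1.05), where 3.81% of all genes reached it. With DNP there was 1, Aurkb (0.51), where 1.4% of all genes did. With Roziglitazone there were 5, where 7.34% of all genes did. They were Smc4 (at least 1.49), Ttk (-0.81), Smc2 (at least 1.07), Cenpf (-0.52) and Kif11 (-0.33). The medians of the 38 were -0.15, 0.18 and -0.14. Without Roziglitazone 2 the last was -0.20, and no member was called with Roziglitazone there or without the 3 arrays in doubt. Single arrays stood apart within these groups. DNP 1 had 21 of the 38 genes above the highest control, with Ect2 at 7.48 against 5.96 to 6.13 in the other DNP arrays. In the array labelled Roziglitazone 2, Mybl1 read 8.37 and Smc2 6.93, against 3.87 to 4.27 and 4.86 to 5.92 in the others of that group, while its Ube2c (6.72) and Birc5 (6.63) lay within the control range.

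DMN and DNP shared dose, vehicle and route, which removes vehicle and route from the comparison. DMN was higher in 15 of the 38 genes and lower in none, where 3.85% of all genes were called higher and 3.04% lower, with Mybl1 (at least 3.32, adjusted p = 5.99e-05), Kif20b (at least 2.72, adjusted p = 0.00106), Ube2c (2.67, adjusted p = 0.00125) and Top2a (1.40, adjusted p = 0.00106) among them. The DNP means of Mybl1 and Kif20b lay at background. Only Mybl1 and Kif20b had all DMN arrays above all DNP arrays, against 2.35% of all genes. The count was 25 without the arrays in doubt, where 5.91% of all genes were called higher. It was 9 without DMN 1 (2.98% of all genes) and 8 without DMN 3 (2.41%) or DMN 4 (3.06%). NMF and Caerulein shared vehicle and route. No member was called between them, where 5.49% of all genes were called, and none reached an unadjusted p under 0.05 in limma (17.4% of all genes did).

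**Figure D5:**
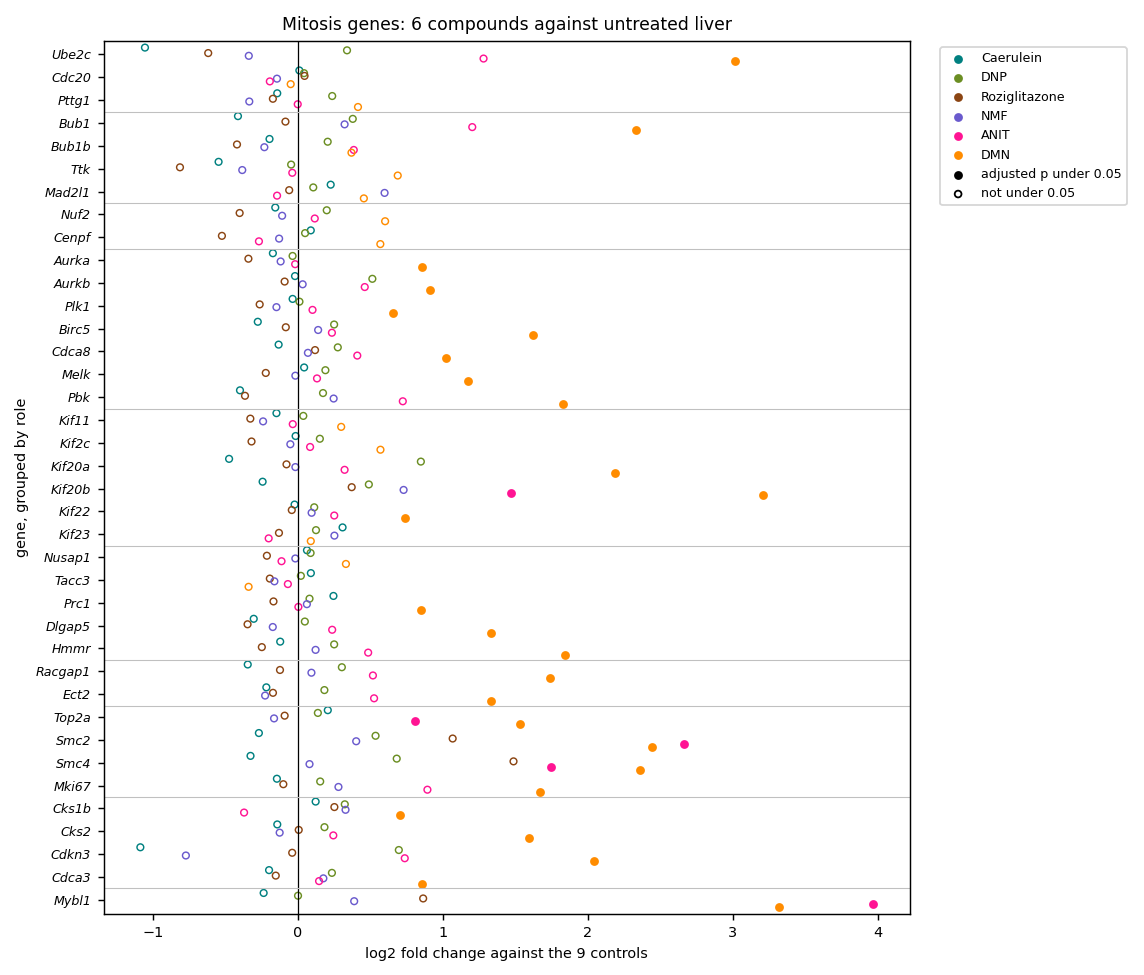
Log2 fold change of each of the 38 genes (rows, grouped by role) for the 6 compounds against the same 9 controls; filled points have an adjusted p under 0.05 in limma and open points do not. The DMN points run from -0.34 for Tacc3 to 3.32 for Mybl1 (a lower bound) with 26 filled, ANIT has 5 filled points, and the other 4 compounds have none.

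For 13 of the 38 genes more than 1 probe set was available, and the brightest stood for the gene. In DMN against controls the probe sets of 11 of these 13 fell on both sides of the threshold when all were fitted. A dimmer probe set was higher where the brightest was not called for 6 genes. These were Kif23 (1.94, adjusted p = 0.00268, against 0.09), Mad2l1 (1.72, adjusted p = 9.38e-05, and 1.08, adjusted p = 0.00189, against 0.45), Tacc3 (1.61, adjusted p = 0.00248, against -0.34), Kif11 (1.14, adjusted p = 0.0122, against 0.30), Cdc20 (0.92, adjusted p = 0.0105, and 0.80, adjusted p = 0.00544, against -0.05) and Nusap1 (0.84, adjusted p = 0.0147, against 0.33). For Hmmr, Top2a, Racgap1, Smc4 and Cks1b a second probe set had a smaller difference that did not pass, from 0.43 in Cks1b to 1.42 in Smc4. The direction differed between probe sets in Tacc3 and Cdc20 only. With the mean of a gene's probe sets 32 of the 38 genes were higher with DMN, where 5.32% of all genes were. With every probe set fitted 30 genes had at least 1 that was higher, where 4% of all probe sets fitted were.

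Members were compared with 2 other lists, a longer one of further mitosis genes and one of DNA replication genes. Of 64 other mitosis genes measured 32 rose with DMN and none fell (5.87% and 4.53% of all genes), at a median of 0.57, led by adjusted p by Spc24, a kinetochore subunit (2.22, adjusted p = 3.28e-06), Cdk1, the kinase that triggers mitosis (2.61, adjusted p = 5.48e-05), and Aspm, a spindle pole protein (2.08, adjusted p = 9.98e-05). Of 31 DNA replication genes 17 rose with DMN and none fell, at a median of 0.56, led by Rfc4, a clamp loader subunit (1.74, adjusted p = 2.06e-05), Tyms, which makes thymidylate (1.89, adjusted p = 3.63e-05), and Ccne1, the cyclin of S phase entry (0.98, adjusted p = 6.41e-05). With ANIT 7 of the 64 mitosis genes rose and 1 fell at a median of 0.18, while 16 of the 31 replication genes rose and 1 fell at a median of 0.55, where 8.19% of all genes were called higher and 8.29% lower. With NMF 2 mitosis genes rose and 1 fell, and 3 replication genes rose and none fell, where 3.85% and 3.63% of all genes did. Per array, the replication genes averaged 0.42 to 0.82 above the control mean in the 5 ANIT arrays and the members 0.04 to 1.57, with ANIT 3 highest in both.

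Some markers of liver and blood cells were called with DMN and with ANIT too, given first for DMN. Of all genes 5.87% were called higher and 4.53% lower with DMN, and 8.19% and 8.29% with ANIT. Of 5 neutrophil markers 3 rose (Csf3r, S100a8 and S100a9), with summed intensities from 472 to 7090 in the DMN arrays against 507 to 1200 in controls. Of 7 erythroid markers Alas2 rose, with sums from 7789 to 23271 against 6047 to 13717, and of 7 macrophage markers Lyz2 rose and Cd14 and Clec4f fell, with sums from 7895 to 15155 against 7298 to 9907. Of 6 endothelial markers 3 fell (Kdr, Stab2 and Tek) and of 8 stellate cell markers 1 (Col3a1). Of 5 cholangiocyte markers Spp1 rose and Krt19 fell, and none of 10 lymphocyte markers passed. None of 7 hepatocyte markers passed, with sums from 95368 to 107801 against 77679 to 105107. With ANIT Lyz2, Tfrc (erythroid), Epcam (cholangiocyte) and Apoa1 (hepatocyte) rose. Adgre1 and Cd14 of the macrophage markers, Cd8a and Lck of the lymphocyte, Kdr and Stab2 of the endothelial, Lrat of the stellate cell and Krt19 of the cholangiocyte markers fell. None of the 5 neutrophil markers passed with ANIT, with sums from 535 to 2901. The part of these cells in the mitosis genes was not tested.

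Across the 39 arrays, deviations of the members from their group means went together for most pairs. The median correlation over 703 pairs of genes was 0.43, with 87.1% of pairs above 0, and arrays share their RNA and scaling in every pair. It was 0.27 without the arrays in doubt and 0.20 in the 29 arrays of groups other than ANIT and DMN. Bub1 (0.92), Hmmr (0.90) and Birc5 (0.89) followed the mean of the other members most closely. Tacc3 (-0.23), Kif23 (-0.15) and Cks1b (-0.05) followed it least, the first 2 of them genes whose dimmer probe set rose with DMN. Members with the CHR hexamer in their promoter were called higher with DMN in 15 of 25 cases, at a median of 0.74. Those with a promoter but no hexamer were called higher in 6 of 8, at a median of 1.01. Of all genes 5.87% were called higher, at a median of -0.06. Ube2c, Aurkb, Pbk, Racgap1 and Mybl1, which had no promoter record, were all called higher with DMN.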

How the data were processed

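Biotin-labelled cRNA from 39 rat livers was hybridized to Affymetrix Rat 230 2.0 arrays. The intensities deposited by the authors, 1 per probe set, were linear and ran from 5.4 to 23152.1; the submitters' processing notes name RMA and the affy package without versions, and any other step is not given in the sources used here. The plan had assumed log2 values, and since the deposited intensities were linear, log2 was taken here. Array means ran from 348 to 363, and depth does not apply to arrays.

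Of 31099 probe sets, 20826 carried 1 gene symbol, 436 several and 9780 none in the platform annotation, and 57 were controls. Symbols were updated by gene ID for 20758 probe sets and kept for 68. The probe set with the highest mean stood for a gene, which left 14217 genes, with no filter on dim genes. Of the 38 members, 21 lay above the dimmest 30% of genes. Group means over the 39 arrays were estimated jointly in limma 3.58.1 under R 4.3.3 (lmFit, contrasts.fit, eBayes), for 11 contrasts, with p values adjusted by Benjamini and Hochberg over all genes and calls at an adjusted p under 0.05. The fit was tested on simulated data. The labels call the samples of a group biological replicates. Arrays of different groups share the numbers 1 to 5, which the labels tie to no shared batch; whether they pair the arrays was checked, and they were not used as a block in the main fit.

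The members and all gene lists were chosen with earlier results of these data known, so counts over them are descriptions. Array values are printed for the member of each role with the lowest adjusted p in DMN against controls, the one with the highest mean in each role, and Mybl1; Smc2 and examples in other groups were added after their values were seen. Of the other lists, the 3 genes with the lowest adjusted p with DMN are named. Array agreement was computed without the listed genes. The alternatives were the mean of a gene's probe sets, every probe set, median centring, quantile normalization, leaving out dim genes, an offset of 16 before the log2, array weights, the 2 groups alone, a block on the array number, the Gapdh difference as a covariate, and leaving out arrays. Promoter sequences come from RefSeq (GRCr8).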

Additional observations from a re-analysis of the deposited data

Results flagged for a closer look

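In 126 sets of arrays (the mean of the 38 genes and 17 single genes, in each of 7 groups), 22 times 1 array lay far from the rest of its group by Dixon's test. For independent sets chance gives about 1 in 20. These sets share arrays and genes that varied together, so the 22 cannot be set against that rate. ANIT 3 was the high array of its group in the mean of the 38 genes (1.57 above the control mean), Ube2c (10.12), Bub1 (7.84), Birc5 (9.08), Kif20b (8.09), Dlgap5 (7.84), Top2a (9.86) and Cdkn3 (9.80), while ANIT 5 was the high one for Bub1b (7.69). DMN 2 was the low array of its group for Ube2c (8.25) and Nusap1 (7.53). DNP 1 was high for Bub1 (6.70), Racgap1 (6.76) and Ect2 (7.48). NMF 4 was high for Bub1 (5.91) and Mybl1 (5.66). Roziglitazone 1 was high for Nuf2 (7.81) and Ect2 (7.20), and Roziglitazone 2 for Mybl1 (8.37). Caerulein 5 was high for Pttg1 (9.09), Caerulein 1 for Mybl1 (4.17, still at background) and control 5 for Ect2 (6.92).

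Compounds also differed from each other in the direct limma tests. With all arrays, all mitosis genes called were higher in the first named compound. They numbered 5 between DMN and ANIT (1.07% of all genes called higher) and 21 between DMN and NMF (3.0%). There were 4 between ANIT and NMF (3.76%) and 15 between DMN and DNP (3.85%).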

How the results depend on the processing

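The medians of the 38 genes against controls moved by less than 1 SD of the array means of the treated group under each alternative. That is a wide yardstick where single arrays stand apart. With ANIT the SD includes ANIT 3, and the median went from 0.24 to -0.03 without that array. With single arrays left out the medians ran from 0.85 to 1.12 with DMN, -0.03 to 0.37 with ANIT and -0.20 to -0.10 with Caerulein. They ran from 0.05 to 0.29 with DNP, -0.07 to 0.03 with NMF and -0.26 to -0.09 with Roziglitazone. Median centring moved the median of all genes by over 0.1 with ANIT (-0.09 to 0.04) and DMN (-0.06 to 0.05). The counts then became 8 with ANIT (16.1% of all genes called) and 3 for DMN against ANIT (1.58%). Leaving out dim genes, which kept 21 of the 38, gave 16 calls with DMN (14.1% of the genes kept) and 2 with ANIT (21.2%). It gave 11 for DMN against NMF (6.1%) and 7 for DMN against DNP (9.92%). Array weights gave 33 with DMN (32 higher, 1 lower; 12% and 12.4% of all genes), 10 with ANIT (9 and 1; 17.7% and 16.4%), 31 for DMN against ANIT (all higher; 5.85% of all genes), 8 for ANIT against NMF (6 and 2; 11.5% and 9.14%) and 28 for DMN against DNP (27 and 1; 8.29% and 10.1%). The offset gave 8 for DMN against ANIT (3.14% of all genes called). Fitting the 2 groups alone gave 0 for DMN against ANIT, where 0% of all genes were called. It gave 8 for DMN against NMF (1.31% of all genes called), 2 for ANIT against NMF (5.77%) and 5 for DMN against DNP (1.87%). The Gapdh covariate gave 1 with NMF (9.35% of all genes called) and 8 for DMN against ANIT (4.75%). It gave 7 for ANIT against NMF, 5 higher and 2 lower (6.58% and 4.46% of all genes). Without the 3 arrays in doubt there were 27 for DMN against ANIT (3.77% of all genes called higher) and 25 for DMN against DNP (5.91%). For array weights, the offset, the covariate and median centring the cause was not tested. Single arrays left out gave 20 to 29 calls with DMN, 2 to 7 with ANIT, 0 to 18 for DMN against ANIT, 13 to 28 for DMN against NMF, 2 to 6 for ANIT against NMF, 8 to 20 for DMN against DNP, and 0 with Caerulein, DNP, NMF and Roziglitazone and for NMF against Caerulein. Over the same fits the share of all genes called ran from 7.08% to 12.8% with DMN and from 11.9% to 19.4% with ANIT. It ran from 0.457% to 7.48% for DMN against ANIT and from 3.21% to 6.53% for DMN against NMF. For ANIT against NMF it ran from 3.41% to 8% and for DMN against DNP from 4.47% to 9.78%. With NMF it ran from 5.06% to 7.97% and for NMF against Caerulein from 3.61% to 5.16%. The block on the array number gave 2 with ANIT (11.9% of all genes called), 20 with DMN (8.31%) and 3 for DMN against ANIT (2.19%). The same arrays without the block, an alternative chosen after seeing the data, also gave 2 (8.54%), 20 (6.17%) and 3 (1.46%). All arrays with equal numbers deviated together (correlation over 0.1) in 1 of 21 group pairs, which is not the every-pair condition for pairing. The correlation was over 0.1 in 55.2% of pairs with equal numbers and in 27.4% of pairs with unlike numbers, and 18 of 35 arrays correlated best with their own number, a hint from the data and not from the design. Calls were checked gene by gene in each alternative but the fit of every probe set, and genes removed as dim were not checked in the fit without dim genes. Within these checks no member called in any contrast changed direction. Of the DMN calls 19 of 26 held in each alternative in which they were checked, and of the ANIT calls 2 of 5. For DMN against NMF 8 of 21 did, for DMN against DNP 5 of 15, for ANIT against NMF 2 of 4 and for DMN against ANIT 0 of 5. Groups of 5 and control means at background for Kif20b, Mybl1, Smc2 and Smc4 limit what can be measured.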
